A study of Mus musculus with 6 samples.

Results

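The Gadd45 and Id families were followed in primary mouse hippocampal neurons given forskolin for 30 min. The members were taken by symbol: Gadd45a, Gadd45b, Gadd45g, Id1, Id2, Id3 and Id4, which are 7 of the 37411 gene rows in the deposited count table. The neurons came from newborn (P0) pups of the outbred CD-1 IGS strain and were kept for 16 days in vitro. The controls (3 libraries, 1, 2 and 3) received the solvent dimethyl sulfoxide (DMSO), and the treated group (3 libraries, 4, 5 and 6) received forskolin at 50 µM, which activates adenylyl cyclase and so raises cyclic AMP (cAMP). The labels name no transgene or other agent, do not say whether the libraries of a group came from separate cultures, and give no batch. The p-values therefore measure the spread between these libraries, which may be in part technical.

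GADD45 proteins are small acidic stress sensors. They have no enzyme activity of their own and act by binding partners, among them the kinase MAP3K4 upstream of p38 and JNK, the replication clamp PCNA, the cell-cycle kinase CDK1 and enzymes of DNA repair and demethylation. In hippocampal neurons Gadd45b is known as an activity-induced gene linked to DNA demethylation. Id proteins have a helix-loop-helix domain without the basic region that contacts DNA, so they pair with E proteins such as TCF3, TCF4 and TCF12 and keep them and their partners off DNA. The Id genes are classic targets of bone morphogenetic protein (BMP) signalling through SMAD1, SMAD5 and SMAD9, and are strongly expressed in astrocytes, neural precursors and blood vessels.

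Total counts ran from 28342764 to 47548379 per library. Library 6 stood apart from the other treated libraries, with a Pearson correlation across genes of 0.983 with DMSO library 3, 0.943 with library 4 and 0.940 with library 5. Markers of the labelled cell type were present in every library: the 14 neuron markers summed to 4770 to 6098 CPM (counts relative to the scaled library total) in the controls and to 3553 to 5696 CPM in the treated libraries. The cultures were mixed, since the 12 astrocyte markers summed to 7371 to 8108 and 7256 to 8845 CPM in the same groups. Summed microglia markers were 14.5, 10.8 and 7.24 CPM in controls 1, 2 and 3, and 209.6, 376 and 9.79 CPM in treated libraries 4, 5 and 6. The mitochondrial ribosomal RNA genes mt-Rnr1 and mt-Rnr2 took 14.03, 23.7 and 19.8% of the counts in the controls and 29.6, 33.3 and 26.9% in the treated libraries, so this share was higher in every treated library. In such bulk RNA, fewer cells of a type and less RNA per cell cannot be told apart.

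Promoter windows, from 250 bases before to 50 after the start site, were available for 6 of the 7 members (RefSeq, GRCm38.p6). Windows of 4 members are shown, because Gadd45b, Gadd45g and Id4 had their highest levels in the same libraries and Id3 did not. Capitals mark CCAAT boxes and cAMP response element (CRE) half-sites, TGACG, on either strand, so that ATTGG and CGTCA are the same motifs read from the other strand. Gadd45b lies at chr10:80929841-80930140 (+ strand), Gadd45g at chr13:51846425-51846724 (+), Id4 at chr13:48260866-48261165 (+) and Id3 at chr4:136143572-136143871 (+).
Gadd45b: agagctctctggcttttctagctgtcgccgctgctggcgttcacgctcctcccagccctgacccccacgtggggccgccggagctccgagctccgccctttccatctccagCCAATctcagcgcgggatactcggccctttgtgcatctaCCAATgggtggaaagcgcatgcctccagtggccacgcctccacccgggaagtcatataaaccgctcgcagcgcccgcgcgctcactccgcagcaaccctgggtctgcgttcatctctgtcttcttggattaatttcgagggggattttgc
Gadd45g: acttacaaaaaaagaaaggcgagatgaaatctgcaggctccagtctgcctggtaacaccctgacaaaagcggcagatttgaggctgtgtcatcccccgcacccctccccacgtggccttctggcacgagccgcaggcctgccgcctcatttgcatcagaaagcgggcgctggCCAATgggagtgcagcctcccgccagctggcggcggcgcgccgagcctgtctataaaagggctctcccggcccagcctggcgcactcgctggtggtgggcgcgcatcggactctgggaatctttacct
Id4: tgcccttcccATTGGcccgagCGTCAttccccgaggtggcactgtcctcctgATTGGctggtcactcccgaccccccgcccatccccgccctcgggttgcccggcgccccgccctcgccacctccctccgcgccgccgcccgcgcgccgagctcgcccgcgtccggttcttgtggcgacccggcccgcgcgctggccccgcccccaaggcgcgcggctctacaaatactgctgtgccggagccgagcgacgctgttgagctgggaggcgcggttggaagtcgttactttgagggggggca
Id3: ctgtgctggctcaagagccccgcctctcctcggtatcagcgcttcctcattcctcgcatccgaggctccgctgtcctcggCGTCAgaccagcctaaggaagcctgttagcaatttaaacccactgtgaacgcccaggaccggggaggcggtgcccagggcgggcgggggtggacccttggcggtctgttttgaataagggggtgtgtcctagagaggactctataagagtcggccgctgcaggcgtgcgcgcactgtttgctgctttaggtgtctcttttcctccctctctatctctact

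The full CRE, TGACGTCA, was found in 0 of the 6 windows, and in 1.79% of all 32851 RefSeq promoter windows of this length. Its half-site stood once in the window of Id4 and once in that of Id3 (20.8% of all windows hold it), and those of Gadd45a, Gadd45b, Gadd45g and Id2 held 0. CCAAT was counted once in Gadd45a and Gadd45g, 2 times in Gadd45b and Id4, 3 times in Id2 and 0 times in Id3, against 37.4% of all windows with at least 1. Counted from the RefSeq start site, the nearest box began at base -86 in Gadd45a, -100 in Gadd45b, -78 in Gadd45g, -76 in Id2 and -198 in Id4. A TATA box, TATAAA, stood in the Gadd45b and Gadd45g windows (13.6% of all windows), beginning at bases -46 and -27. The same windows of Gadd45b and Gadd45g also held the E-box CACGTG, which 7.15% of all windows hold. These matches describe letters in a window and were searched for with the sequences in view.

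In the comparison of forskolin with DMSO, 0 of the 7 members passed edgeR's quasi-likelihood test on the 6 libraries at a Benjamini-Hochberg adjusted p-value under 0.05, where 0.172% of 16233 tested genes were called higher and 1.34% lower. All 7 were tested. Unadjusted p-values under 0.05 were found for 3 members (Gadd45a, Gadd45g and Id2), against 22.3% of all tested genes. DESeq2 on the same libraries called 1 member higher, Gadd45g (background 5.33% higher), limma-voom called 0 (24 higher and 193 lower among all 16233 tested genes), and limma with library quality weights called 5 higher, namely all but Id1 and Id3 (background 21.0%). Without library 6, edgeR called Gadd45a, Gadd45b, Gadd45g and Id4 higher, 4 of 7, where 16.5% of 16941 genes were called higher and 17.1% lower. Without any other single library it called 0 of 7, and 0 genes of any kind. By their levels, the Gadd45 genes and Id4 were highest in libraries 4 and 5, Id2 had a small and even difference, and the groups of Id1 and Id3 overlapped widely.

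Library 4 exceeded each of the controls in 6 of 7 members, library 5 in 5 and library 6 in 2. The same held for 37.5, 37.1 and 29.5% of all tested genes. Library 6 lay below every DMSO library in 3 members, Id1, Id3 and Id4, as did 35.3% of all genes. Both library 4 and library 5 were above all DMSO libraries in 5 members, a pattern that 30.2% of tested genes had. In the plot of levels by library, libraries 4 and 5 stand above the others in the Gadd45 panels and in Id4.

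**Figure D1:**
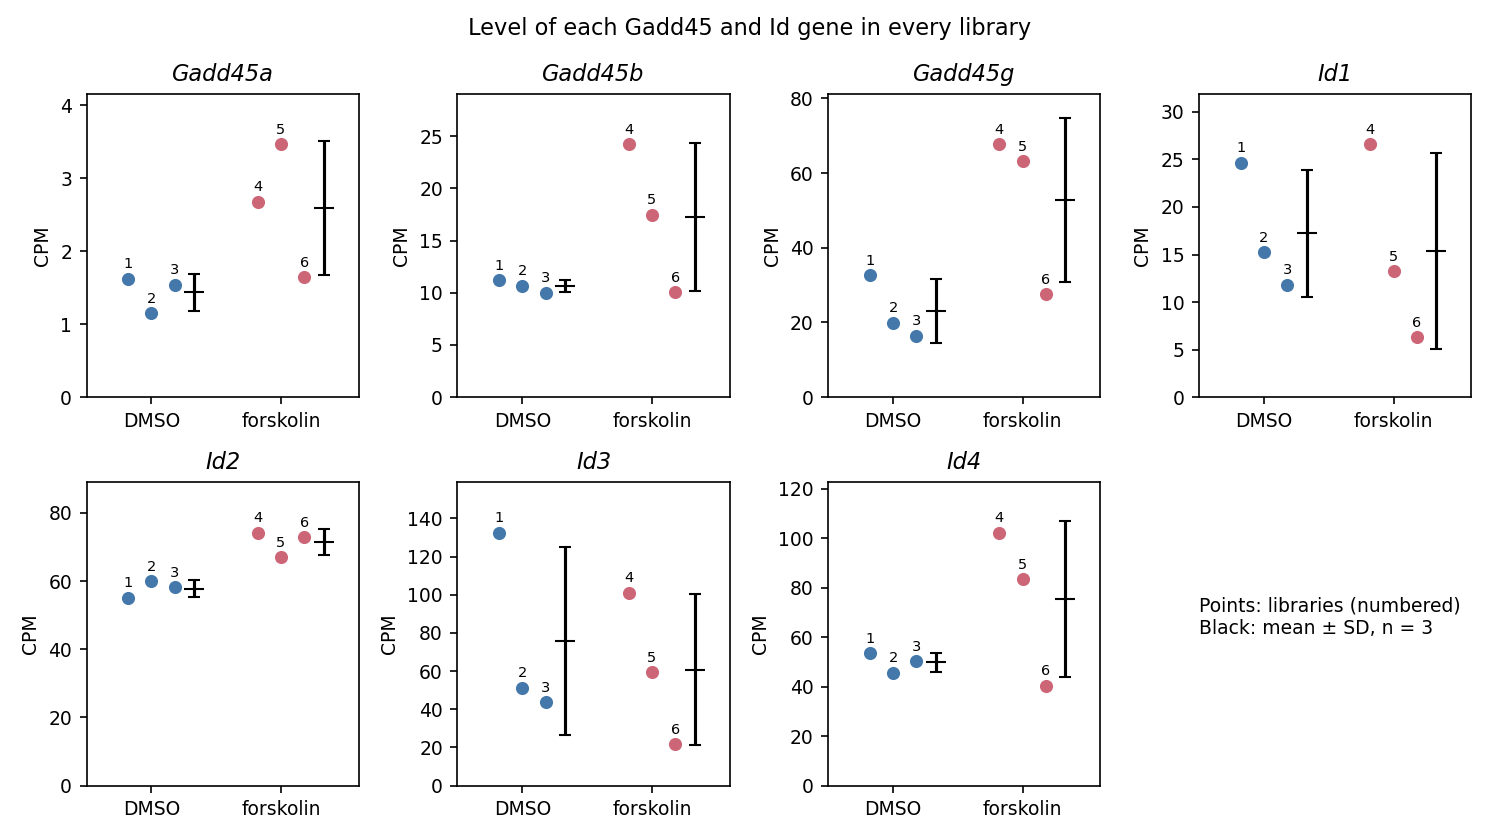
Level of each member in CPM (scaled counts; linear axes from 0) in DMSO libraries 1 to 3 and forskolin libraries 4 to 6, with the mean ± SD of each group in black. Gadd45g and Id4 are highest in libraries 4 and 5, Id2 is above the DMSO libraries in all 3 treated libraries, and Id3 is highest in DMSO library 1.

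Gadd45g, the family member found through its induction by cytokines, was the most abundant Gadd45 gene. It is annotated on chromosome 13 (51846678 to 51848468, + strand, GENCODE M21 on GRCm38) with 4 exons. Gadd45g had 32.7, 19.9 and 16.4 CPM in controls 1, 2 and 3, and 67.8, 63.3 and 27.6 CPM in treated libraries 4, 5 and 6. Libraries 4 and 5 lay above all others, and library 6 lay between DMSO libraries 1 and 2, so the groups overlapped. The means were 23.0 ± 8.57 and 52.9 ± 22.0 CPM (SD, n = 3), and the fitted log2 fold change was 1.20 ± 0.39 (SE; edgeR adjusted p = 0.161), the largest of the 7. DESeq2 gave 1.21 (adjusted p = 0.0246) on the same libraries. Without library 6 edgeR gave 1.49 ± 0.27 (adjusted p = 0.0105), and without libraries 4 and 5, an alternative chosen after the data were seen, 0.30 ± 0.38 (adjusted p = 0.705).

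Gadd45b, known as the activity-induced member in neurons, sits on chromosome 10 (80930073 to 80932204, + strand, 4 exons). Its controls were close together, at 11.2, 10.7 and 10.01 CPM. Treated libraries 4, 5 and 6 held 24.2, 17.5 and 10.03 CPM of Gadd45b. Library 6 was thus within the DMSO range, while the other treated libraries were above it. The log2 fold change of Gadd45b was 0.70 ± 0.31 (SE, edgeR adjusted p = 0.236) with all libraries and 0.96 ± 0.17 (adjusted p = 0.00906) without library 6. Without library 4 it was 0.37 (edgeR adjusted p = 0.551), and without both libraries 4 and 5 the direction turned, at -0.04 (adjusted p = 0.921).

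Gadd45a, the p53 target from which the family takes its name, was the least abundant member. It lies on chromosome 6 (67035096 to 67037457, - strand, 4 exons). Counts of Gadd45a were 52, 35 and 55 in controls 1, 2 and 3, and 126, 118 and 55 in treated libraries 4, 5 and 6, or 1.62, 1.15 and 1.54 against 2.68, 3.47 and 1.64 CPM. The groups did not overlap, but only by the small step between library 6 and library 1: the exact Poisson 95% interval of library 6 ran from 1.24 to 2.14 CPM and that of library 1 from 1.21 to 2.13 CPM. These intervals cover counting error only, and take the deposited whole numbers as read counts; they may be rounded estimates. Among all tested genes, 10.3% had groups that did not overlap with forskolin higher, and among the members Gadd45a and Id2 did. The log2 fold change of Gadd45a was 0.85 ± 0.34 (SE, edgeR adjusted p = 0.207), and 1.07 ± 0.26 (adjusted p = 0.0239) without library 6. Without libraries 4 and 5 it was 0.23 (edgeR adjusted p = 0.772). The noncoding gene E230016M11Rik overlaps Gadd45a on the other strand and held 28 to 41 counts per library, 209 in all against 441 for Gadd45a. This overlap is one of gene spans, and shared exons were not checked. The strand setting of the counting is not given in the sources used here. How far reads of either gene were counted for the other is therefore not known.

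Within the Gadd45 family the makeup was compared per kilobase of the longest annotated coding transcript. Gadd45g made up 75.3, 66.8 and 62.8% of the family's CPM per kb in controls 1, 2 and 3, and 75.0, 78.2 and 73.8% in treated libraries 4, 5 and 6. DMSO library 1 reached the treated range, so the groups overlapped in this share. Gadd45b took 21.5 to 32.0% in the controls and 18.03 to 22.4% in the treated libraries, and Gadd45a between 2.59 and 5.17% in all 6. The order Gadd45g, Gadd45b, Gadd45a was the same in every library. The summed level of the 3 genes was 45.5, 31.7 and 27.97 CPM in the controls and 94.7, 84.2 and 39.3 CPM in the treated libraries, where library 6 again fell within the DMSO range.

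**Figure D2:**
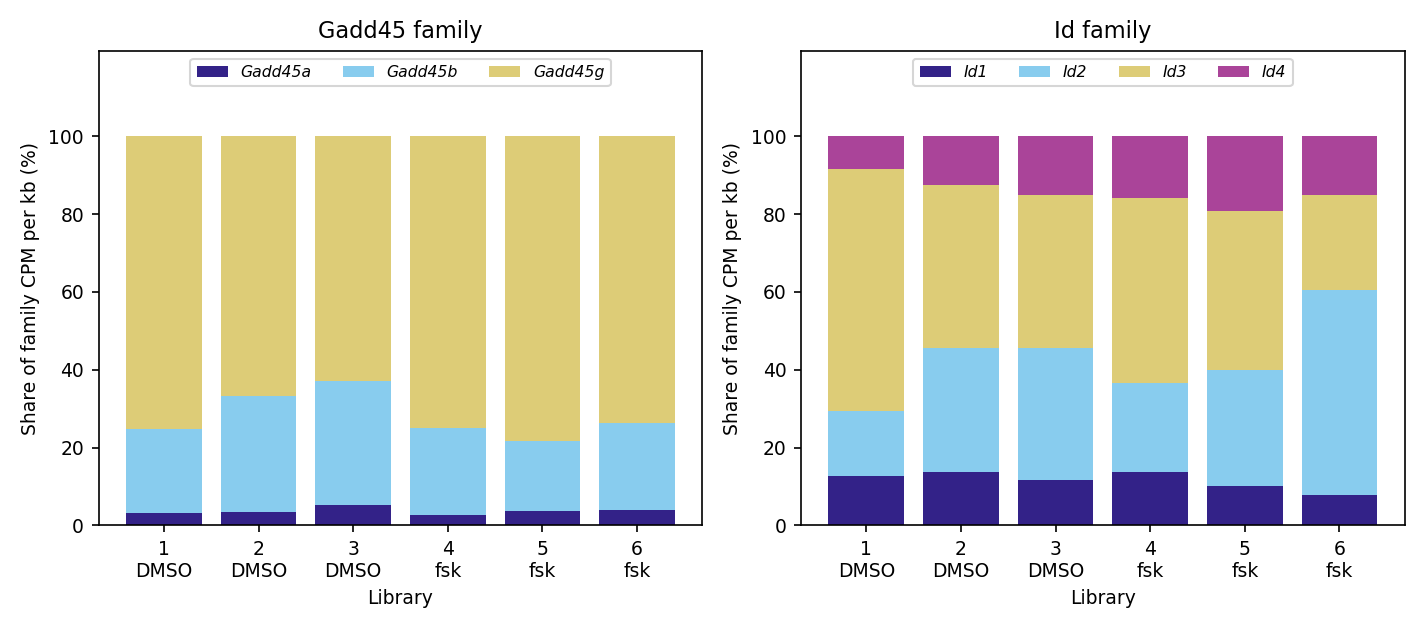
Share of each family's summed CPM per kb held by each member (%, stacked bars) in libraries 1 to 3 (DMSO) and 4 to 6 (forskolin, fsk). Gadd45g holds between 62.8 and 78.2% of the Gadd45 family throughout, whereas the leading Id gene is Id3 in 5 libraries and Id2, at 52.8%, in library 6.

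Id2, the Id gene most associated with postmitotic neurons, showed the smallest spread of the 7. It is annotated on chromosome 12 (25093799 to 25097140, - strand), with 4 exons in its longest coding transcript. Id2 stood at 55.2, 60.02 and 58.3 CPM in controls 1, 2 and 3, and at 74.2, 67.1 and 72.8 CPM in treated libraries 4, 5 and 6. Every treated library was above every control, library 6 included. The share of counts from mitochondrial ribosomal RNA had the same split between the groups (above), and its part in the Id2 value was not tested. The means were 57.8 ± 2.46 and 71.4 ± 3.80 CPM (SD, n = 3), a coefficient of variation of 4.26 and 5.32%. The log2 fold change was 0.30 ± 0.10 (SE), a fold of 1.23, with an edgeR adjusted p of 0.157. DESeq2 gave an adjusted p of 0.0503 and limma with quality weights 0.0401. Without library 6 the log2 fold change of Id2 was 0.27 (edgeR adjusted p = 0.0629), and without libraries 4 and 5 it was 0.37 (adjusted p = 0.270). It was 0.20 (edgeR adjusted p = 0.378) when libraries were scaled by size alone and 0.16 (adjusted p = 0.509) with library trends on GC content removed.

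Id4, an Id gene of neural precursors and astrocytes, had its highest levels in the same libraries as the Gadd45 genes. It lies on chromosome 13 (48261228 to 48266026, + strand, 3 exons). Id4 had 53.5, 45.7 and 50.3 CPM in the controls, and 102, 83.5 and 40.4 CPM in treated libraries 4, 5 and 6. Libraries 4 and 5 were above all controls and library 6 was below all of them. The log2 fold change was 0.60 ± 0.31 (SE, edgeR adjusted p = 0.302) with all libraries, 0.88 ± 0.12 (adjusted p = 0.00502) without library 6 and -0.26 ± 0.15 (adjusted p = 0.458) without libraries 4 and 5. Without library 4 alone it was 0.31 (edgeR adjusted p = 0.658), and removing the GC trend gave 0.31 (adjusted p = 0.633). The antisense gene A330033J07Rik overlaps Id4 and held 307 counts in all against 13906 for Id4.

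Id1 and Id3, the BMP-responsive pair best known from blood vessels and glia, varied most between libraries of 1 group. Id1 is on chromosome 2 (152736251 to 152737410, + strand) and Id3 on chromosome 4 (136143497 to 136145755, + strand). Id3 was at 132.5, 51.2 and 43.7 CPM in controls 1, 2 and 3, and at 101, 59.3 and 21.9 CPM in treated libraries 4, 5 and 6. Id1 showed 24.6, 15.2 and 11.8 CPM in the controls and 26.6, 13.3 and 6.33 CPM in the treated libraries. In both genes libraries 1 and 4 were the highest and library 6 the lowest, so the spread ran across the groups. The coefficient of variation within groups was 65.0 and 65.3% for Id3 and 38.6 and 67.0% for Id1.

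Neither gene passed the test under any alternative that was run. The log2 fold change was -0.16 ± 0.52 (SE, edgeR adjusted p = 0.877) for Id1 and -0.32 ± 0.62 (adjusted p = 0.783) for Id3. Without library 6 the directions turned, to 0.20 (edgeR adjusted p = 0.714) for Id1 and 0.07 (adjusted p = 0.928) for Id3, and without library 1 they turned as well, to 0.20 and 0.37 (adjusted p = 0.872 and 0.758). The ratio of Id1 to Id3 was steadier than either level, between 0.186 and 0.297 in CPM over the 6 libraries, with 0.186, 0.297 and 0.270 in the controls and 0.263, 0.223 and 0.290 in the treated libraries.

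**Figure D3:**
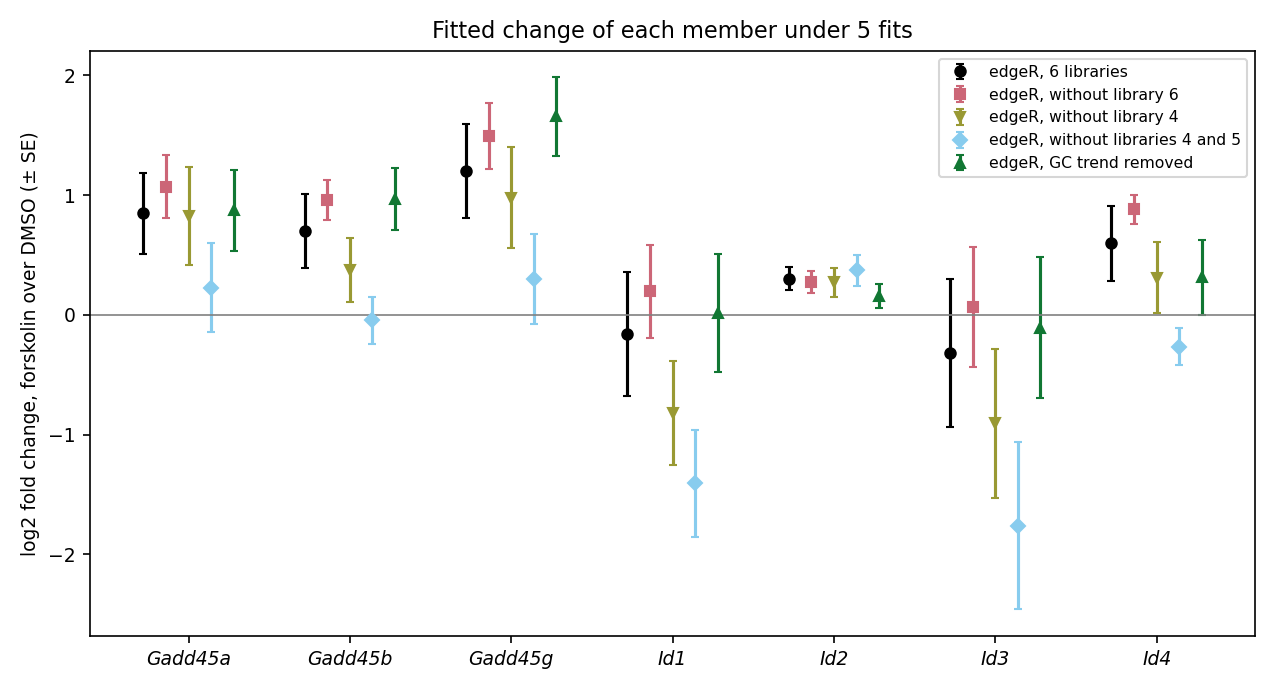
Fitted log2 fold change of each member (forskolin over DMSO, ± SE) with all 6 libraries, without library 6, without library 4, without libraries 4 and 5, and with the GC trend removed. The Gadd45 genes and Id4 are higher without library 6 (1.49 for Gadd45g, 0.88 for Id4) than without libraries 4 and 5 (0.30 and -0.26), Id2 stays between 0.16 and 0.37, and Id1 and Id3 change sign between fits.

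The Id family's makeup followed these differences. Per kb, Id3 took 62.1, 41.9 and 39.3% of the family in the controls and 47.6, 40.9 and 24.4% in treated libraries 4, 5 and 6. Id2 took 16.8, 31.9 and 34.0% in the controls and 22.7, 30.0 and 52.8% in the treated libraries. Library 6 was thus the only one in which Id2 led the family. Id4 held 8.34 to 15.01% in the controls and 14.99 to 19.1% in the treated libraries.

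Levels of all 7 members could be ordered per kb of coding transcript. In the DMSO libraries the mean CPM per kb was 59.3 for Id3, 29.4 for Id2, 21.5 for Gadd45g, 14.8 for Id1, 12.9 for Id4, 8.27 for Gadd45b and 1.18 for Gadd45a. The libraries of Gadd45g (15.3 to 30.5 CPM per kb) overlapped those of Id2 (28.01 to 30.5) and Id1 (10.2 to 21.2), and those of Id1 overlapped Id4 (11.9 to 13.9). Id3, at 34.2 to 104, lay above Id2 in each DMSO library, and Gadd45b (7.80 to 8.71) and Gadd45a (0.939 to 1.33) lay below the others. In the forskolin libraries Gadd45g led with a mean of 49.4, before Id3 with 47.5 and Id2 with 36.2 CPM per kb, and these 3 overlapped between libraries. Id4 followed with 19.6, then Gadd45b with 13.4 and Id1 with 13.3, which also overlapped, and Gadd45a with 2.12 CPM per kb.

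Cell-type markers moved with several members, and their part in the member values was not tested. Libraries 4 and 5, highest in the Gadd45 genes and Id4, also had the highest sums of microglia markers (above) and of the 12 markers of cycling cells: 164.9, 147 and 172 CPM in controls 1, 2 and 3, and 248, 341 and 162 CPM in libraries 4, 5 and 6. Without library 6, 11 of 12 tested microglia markers and 7 of 12 cycling markers were called higher by edgeR, against 16.5% of all genes. With all 6 libraries 0 of either list was called. Oligodendrocyte lineage markers summed to 823 to 914 CPM in the controls and to 1101, 1599 and 647 CPM in libraries 4, 5 and 6. Library 5, the highest in microglia, cycling and oligodendrocyte markers, was below library 4 in Gadd45b, Gadd45g and Id4, and above it in Gadd45a.

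The levels of Id1 and Id3 varied with the summed level of 12 endothelial and mural markers, which was 111, 62.8 and 53.05 CPM in controls 1, 2 and 3, and 82.5, 66.6 and 46.4 CPM in libraries 4, 5 and 6. The libraries had the same order in this sum as in Id3. Of the list, 8 genes were tested and 0 called. Tight-junction Cldn5 held 2 counts and the pericyte channel Kcnj8 held 1 count over all libraries. The sum was carried by Vtn, Kdr, Pdgfrb and Egfl7, and its order was that of Vtn, with 43.6 CPM in library 1 and 10.9 CPM in library 6. Single markers went other ways. Egfl7 was lowest in libraries 4 and 5 (6.95 and 6.99 CPM, against 10.6 to 14.4 CPM in the controls), and Pecam1 was higher in every treated library than in every control. Kdr was highest in library 1 (26.0 CPM), as the sum was, but library 5 (22.3 CPM) came before library 4 (19.0 CPM).

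**Figure D4:**
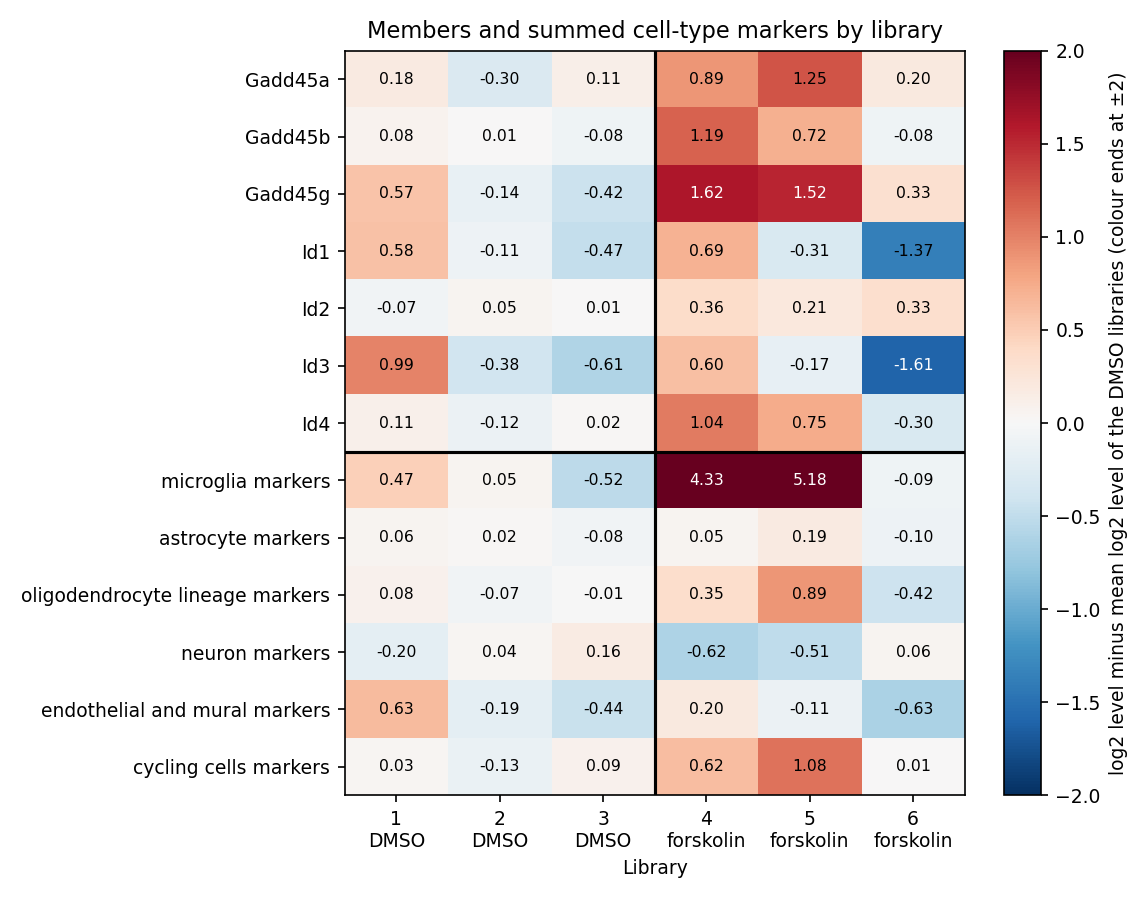
Log2 level in each library minus the mean log2 level of the DMSO libraries, for the 7 members (log2 CPM) and for the summed CPM of 6 marker lists (colour ends at ±2; the values are written in the cells). Libraries 4 and 5 are high in the Gadd45 genes, Id4, microglia and cycling markers, and Id1 and Id3 are high in libraries 1 and 4, where the endothelial and mural sum is at 0.63 and 0.20.

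The genes most like each member over the 6 libraries were sought among 13954 other genes with a mean of at least 1 CPM, by Pearson's r of log2 CPM. With libraries 4 and 5 apart from the rest, high values are common (910 to 1375 genes over 0.9 for the Gadd45 genes and Id4), so the names are a description. Nearest to Gadd45g were Nubpl (0.997), Hspa5 (0.997) and Col20a1 (0.991). Gadd45b was nearest to Tmem194 (0.997), Gbp4 (0.992) and Vwa5a (0.992), and Gadd45a to Tpx2 (0.998), Plekhh1 (0.996) and Prkch (0.996). Id4 was most like Bbs2 (0.999), Spata6 (0.997) and Slc24a4 (0.997). Id2 had 98 genes over 0.9, led by B3gntl1 (0.993), Sugt1 (0.986) and Nbas (0.985). Id1 was closest to Col1a1 (0.999), Fbxl12 (0.995) and Man1c1 (0.995), and among those of Id3 were Klhdc8b (0.993) and Fuca1 (0.992). Col1a1, a collagen chain of fibroblasts, had 33.4, 18.6 and 12.5 CPM in the controls and 37.3, 15.2 and 5.35 CPM in the treated libraries, the same order of libraries as Id1.

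No gene in the 4 lists of GADD45 partners and related genes passed the edgeR test on the 6 libraries. Of the kinase partners 11 of 12 were tested and 0 called (median log2 fold change -0.13, against 0.02 over all tested genes). Of the cell-cycle and repair partners 0 of 11 were called (median 0.33), of the DNA demethylation list 0 of 13 (median 0.22) and of the p53 response genes 0 of 13 (median 0.29). The demethylation list also holds genes that place or keep methylation, among them Dnmt1 and Dnmt3a, so its counts and median mix both functions. Without library 6, edgeR called 5 of the 11 kinase partners lower, where 17.1% of all genes were, and 0 higher. With that library left out, edgeR called 4 of 11 cell-cycle and repair partners, 2 of 13 genes of the demethylation list and 6 of 13 p53 response genes higher. The share over all genes was 16.5%. In the same lists 1, 2 and 1 genes were called lower. Map3k4, the kinase that GADD45 proteins bind and activate, had 69.1, 73.4 and 65.9 CPM in controls 1, 2 and 3 and 57.5, 56.8 and 60.3 CPM in libraries 4, 5 and 6 (edgeR: adjusted p = 0.191, log2 fold change -0.25 ± 0.10 SE). Tet3, the dioxygenase that oxidises methylcytosine, had 59.7, 56.7 and 62.3 CPM against 39.1, 39.1 and 44.9 CPM (edgeR: adjusted p = 0.0661, log2 fold change -0.54 ± 0.11 SE). In both genes every treated library was below every control, as in 16.2% of tested genes. The demethylation list had 3 such genes, Tet3 and the DNA methyltransferases Dnmt1 and Dnmt3a. It also had 3 with every treated library above every control, where 10.3% of tested genes had that order. These were Tet2, a dioxygenase like Tet3 (edgeR: adjusted p = 0.192, log2 fold change 0.43), and the DNA glycosylases Neil1 (adjusted p = 0.133, log2 fold change 0.64) and Neil2 (adjusted p = 0.0870, log2 fold change 1.34). Neil2 held only 159 counts over all libraries, at 0.344 to 0.492 CPM in the controls and 0.866 to 1.20 CPM in the treated libraries. Tet3 was called lower by DESeq2, by limma with quality weights and, without library 6, by edgeR. Map3k4 was called lower with quality weights (limma adjusted p = 0.0235) and by edgeR without library 6 (-0.30, adjusted p = 0.0438), and was at -0.078 (edgeR adjusted p = 0.686) after removal of the GC trend. After the same step Tet3 was at -0.40 (edgeR adjusted p = 0.329).

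Among the dimerisation partners of the Id proteins 1 of 13 tested genes was called, and it was lower, where 1.34% of all tested genes were. Without library 6, 4 of the 13 were called lower and 0 higher, against 17.1 and 16.5% of all genes. Neurod2, a proneural factor of excitatory neurons that pairs with E proteins, had 35.8, 47.0 and 38.5 CPM in the controls and 19.6, 21.2 and 22.1 CPM in the treated libraries (edgeR: adjusted p = 0.0371, log2 fold change -0.95 ± 0.14 SE). The treated libraries were alike, library 6 included. Without any 1 library other than library 6 the adjusted p of Neurod2 lay between 0.137 and 0.299, at log2 fold changes of -1.01 to -0.81; edgeR called 0 genes of any kind in those fits, with 1945 to 3216 at an unadjusted p-value under 0.05. With upper-quartile factors the value for Neurod2 was -0.90 (edgeR adjusted p = 0.0522), and after removal of the GC trend its log2 fold change was -0.52 (edgeR adjusted p = 0.347). Of the 14 neuron markers 7 were likewise lower in every treated library than in every control, library 6 included, against 16.2% of tested genes. One of them was called, Rbfox3, a splicing factor of mature neurons, with 69.2, 84.5 and 80.2 CPM in the controls and 37.8, 42.8 and 47.2 CPM in the treated libraries (edgeR: adjusted p = 0.0392, log2 fold change -0.87 ± 0.13 SE). The other neuron markers of the list overlapped between the groups, and Gad2, Nefl and Map2 among them had positive log2 fold changes (0.21, 0.21 and 0.05). The summed neuron markers were lower in libraries 4 and 5 (3553 and 3845 CPM) and within the DMSO range in library 6 (5696 CPM). The part of neuron content in the Neurod2 value was not tested. Tcf4, the most abundant E protein gene named here, had 269 to 404 CPM in the controls and 344 to 508 CPM in the treated libraries, which overlapped (edgeR: adjusted p = 0.355, log2 fold change 0.38). With the GC trend removed the value for Tcf4 was 0.015 (edgeR adjusted p = 0.964), and limma with quality weights gave 0.57 (adjusted p = 0.0476). When 1 library was left out, edgeR gave 0.231 (without library 5) to 0.585 (without library 3) for Tcf4.

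The Hes and Hey repressors, bHLH targets of Notch that Id proteins can also bind, had 0 of 5 tested genes called (median 0.09). Without library 6, edgeR called 2 of the 5 higher and 1 lower, against 16.5 and 17.1% of all genes. Hes1 had 11.9, 10.6 and 12.5 CPM in the controls and 24.5, 27.7 and 12.9 CPM in the treated libraries (edgeR: adjusted p = 0.154, log2 fold change 0.89). Hes5 was at 9.71, 5.28 and 5.22 CPM against 1.21, 1.82 and 3.91 CPM (edgeR: adjusted p = 0.155, log2 fold change -1.55). The groups overlapped in neither gene, as in 10.3% of tested genes with forskolin higher and 16.2% with it lower. Both passed with DESeq2, with quality weights and, in edgeR, without library 6. The log2 fold change of Hes5 was -0.78 after removal of the GC trend (edgeR adjusted p = 0.543). Without libraries 4 and 5 it was -0.75 (edgeR adjusted p = 0.466), and that of Hes1 was 0.18 (adjusted p = 0.648).

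Upstream of the Id genes, 0 of 18 BMP ligands and receptors (median 0.19), 0 of 9 BMP inhibitors (median -0.26) and 0 of 13 SMADs and SMAD targets (median 0.07) were called. Without library 6 these lists had 2, 2 and 1 genes higher and 1, 2 and 0 lower, against 16.5 and 17.1% of all genes. Bmpr2, the type II BMP receptor, had 89.5 to 174 CPM in the controls and 130 to 187 CPM in the treated libraries (edgeR: adjusted p = 0.543, log2 fold change 0.29; 0.13 to 0.61 when 1 library was left out). Smad7, an inhibitory SMAD, stayed between 7.73 and 9.96 CPM in all libraries (edgeR: adjusted p = 0.755, log2 fold change 0.10 ± 0.17 SE). Smad6, the inhibitory SMAD of BMP signalling, had 4.03, 2.53 and 1.82 CPM in controls 1, 2 and 3, and 4.33, 2.498 and 0.358 CPM in treated libraries 4, 5 and 6 (edgeR: adjusted p = 0.888, log2 fold change -0.21 ± 0.76 SE). As in Id1, library 4 was the highest, library 1 the next and library 6 the lowest.

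The authors' deposited table lists 132 genes, and 0 of the 7 members are among them. The smallest mean signal there is 126.3 normalised counts, while Gadd45a held 35 to 126 raw counts per library. All log2 fold changes in the authors' deposited table are at least 1.501, above the value that edgeR with TMM factors gave each member on the 6 libraries. Gadd45g passed that minimum of the authors' deposited table in other fits on the 6 libraries, at 1.56 with quality weights (limma adjusted p = 0.00592) and 1.66 after removal of the GC trend (edgeR adjusted p = 0.204). The largest adjusted p-value in the authors' deposited table is 0.000623, below that of Gadd45g in each fit run here.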

How the data were processed

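Trizol and chloroform served to extract the RNA of 6 libraries (3 DMSO, 3 forskolin), per the labels' protocols. The authors deposited counts, whole numbers per gene symbol that may be rounded estimates. The submitters' processing notes name Salmon, DESeq and the build GRCm38, with no version or role; strand setting and annotation are not given in the sources used here. The authors' deposited comparison table holds, per the file headers, the mean signal (normalised counts), a log2 fold change and its SE, a test score, a p-value and an adjusted p-value; it was used for membership, its smallest log2 fold change and its largest adjusted p-value.

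Counts were filtered with filterByExpr (minimum count 10, minimum total 15; 16233 genes kept), scaled by TMM and tested with edgeR 4.0.16 (glmQLFit, glmQLFTest; intercept and group) in R 4.3.3, with Benjamini-Hochberg adjustment over all tested genes. The SE was computed as log2 fold change over the root of the F statistic. limma 3.58.1 and DESeq2 1.42.0 served as alternatives. CPM use TMM-scaled library sizes; log2 CPM used a prior count of 2. GC content, coding transcript lengths and gene positions came from GENCODE M21 (GRCm38) by symbol, with GC content for 15769 tested genes (97.1%); the GC trend per library was a lowess curve of span 0.3. Member counts ran from 35 to 4812 per library, so counting error matters mainly for Gadd45a.

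The members and the 9 pathway and 6 marker lists were chosen with earlier results of these data known. Some genes stand in 2 lists (Cdkn1a, Cdk1, Ccnb1, Pcna, Olig1, Olig2). Named were all members, list genes past the threshold in the pathway lists, Map3k4, Tet3, Tcf4, Hes1, Hes5, Bmpr2, Smad6 and Smad7, and the 3 genes most like each member (1 of them, for Id3, is not reported here); Tet2, Neil1, Neil2, Dnmt1, Dnmt3a, genes of the marker lists and overlapping genes were named after their values were seen.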

Additional observations from a re-analysis of the deposited data

How the results depend on the processing

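No paired analysis was run, because the labels do not say whether control and treated libraries share a culture. The library numbers run from 1 to 6 across both groups and none is shared, so any pairing is unknown. The count of called genes, 245 with edgeR on all libraries, was 1775 with DESeq2, 6795 with library quality weights, 137 with RLE factors, 102 with upper-quartile factors, 0 with the GC trend removed (1947 genes at an unadjusted p-value under 0.05), 5432 with the GC trend removed and without library 6, and 94 without libraries 4 and 5; leaving out 1 library gave 0 to 5698, and only the omission of library 6 gave more than 0. The count of called members was 0 on all libraries, 1 with DESeq2, 5 with quality weights, and 4 with the GC trend removed and without library 6; leaving out 1 library gave 0 to 4. With library size alone, the median over all tested genes went from 0.02 to -0.09 (log2). With RLE factors, upper-quartile factors or library size alone each of the 7 members kept its direction.

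The log2 fold changes that reversed were those of Id1 with quality weights (0.15), the GC trend removed (0.017), and this together with the omission of library 6 (0.37); of Id3 with quality weights (0.21) and with the latter pair (0.27); of Id1 and Id3 without library 1 (0.20 and 0.37) and without library 6 (0.20 and 0.07); and of Gadd45b (-0.044) and Id4 (-0.26) without libraries 4 and 5. Among the partners they were those of Bmpr2 with the GC trend removed (-0.043; -0.050 without library 6 as well), of Smad6 with quality weights (0.20), the GC trend removed (0.26; 0.73 without library 6 as well), without library 1 (0.15) and without library 6 (0.28), and of Smad7 with library size alone (-0.0100) and without libraries 4 and 5 (-0.10). Leaving out 1 library gave -0.82 to 0.20 for Id1, -0.90 to 0.37 for Id3 and -0.97 to 0.28 for Smad6. The causes were not tested. The omission of libraries 4 and 5, and the alternatives for partner genes, were chosen after seeing the data; the lone treated library is then assumed to vary like the controls.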
